A study of Mus musculus with 6 samples.

Results

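Among the 23458 windows of 100 kb that could be measured in lung endothelial cells of Dnmt3a KO and WT mice, 1454 windows (6.20%) were highly methylated, with a mean methylation level of at least 78% in WT. Each of the 19 autosomes (mm10) was divided into consecutive windows of 100 kb from its first base, and a window was measured when it held at least 50 tiles of 1 kb. The highly methylated windows cover 145.4 Mb and hold 125599 tiles. They were chosen by the mean of the 3 WT samples, so their WT levels, and any KO minus WT difference that uses those same WT samples, are given as a description and not as a test.

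The samples were 3 of Dnmt3a KO and 3 of WT endothelial cells, sorted from mouse lung by flow cytometry, whose DNA was measured by whole-genome bisulfite sequencing. The labels leave the allele, the driver of the deletion, and the strain, age and sex of the mice unstated. Nothing in them ties the 3 samples of a genotype to different animals, so each p-value here reflects sample-to-sample spread that could be technical. Each tile has a methylation level but no read count, and sequencing depth is therefore unknown.

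DNMT3A is a de novo DNA methyltransferase, which adds methyl groups to unmethylated CpG sites, while DNMT1 copies methylation to the new strand after replication. In mammalian cells most of the genome is methylated, CpG-rich gene starts are usually kept free of methylation, and the bodies of transcribed genes are highly methylated. Histone H3 methylated at lysine 36, a mark laid down over transcribed gene bodies, is bound by the PWWP domain of the DNMT3 enzymes. Large domains of high methylation alternate along chromosomes with partly methylated domains, which are usually poor in active genes.

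The cell type was checked at gene starts. The 1 kb tile over the start was measured for 7 of 10 endothelial markers, with a median of 2.16% in KO and 4.31% in WT and 6 of the 7 under 20% in WT, among them those of the VEGF receptor Kdr, the angiopoietin receptor Tek and the tight junction gene Cldn5. The start tiles of 3 leukocyte markers (Ptprc, Cd3e and Cd79a) lay between 44.1 and 70.8% in KO and between 54.5 and 76.6% in WT. Of 3 epithelial markers 2 were under 20% in WT, and of 2 mesenchymal markers 1 was, so low methylation at these starts does not by itself mark a cell type. None of the 25 marker genes lies in a highly methylated window.

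Starts of genes assigned to these windows by midpoint differ in CpG content and in methylation, and 4 of them are shown. A start can lie outside the window of its gene, as those of Usp32 and Birc6 lie outside the windows named for them below. For these 4 genes, the 250 bases before and 50 bases after the start are printed 5′ to 3′ on the strand of the gene, from RefSeq (GRCm38.p6), with each CG in capitals. Usp32 (chr11:85139906-85140205, minus strand), a ubiquitin-specific protease gene, and Birc6 (chr17:74528045-74528344, plus strand), which encodes a giant inhibitor of apoptosis, belong to the windows with the highest WT levels. Naa11 (chr5:97392281-97392580, minus strand), an N-terminal acetyltransferase gene, and Art1 (chr7:102101493-102101792, plus strand), an ADP-ribosyltransferase gene, are shown because their bodies are among the 10 with the largest loss and their starts were methylated in WT.
Usp32: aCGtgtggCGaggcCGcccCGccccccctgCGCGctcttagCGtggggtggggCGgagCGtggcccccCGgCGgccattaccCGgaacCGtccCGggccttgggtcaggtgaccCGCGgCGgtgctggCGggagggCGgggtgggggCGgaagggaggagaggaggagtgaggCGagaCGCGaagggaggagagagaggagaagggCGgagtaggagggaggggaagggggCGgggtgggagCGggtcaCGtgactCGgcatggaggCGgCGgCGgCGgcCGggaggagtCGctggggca
Birc6: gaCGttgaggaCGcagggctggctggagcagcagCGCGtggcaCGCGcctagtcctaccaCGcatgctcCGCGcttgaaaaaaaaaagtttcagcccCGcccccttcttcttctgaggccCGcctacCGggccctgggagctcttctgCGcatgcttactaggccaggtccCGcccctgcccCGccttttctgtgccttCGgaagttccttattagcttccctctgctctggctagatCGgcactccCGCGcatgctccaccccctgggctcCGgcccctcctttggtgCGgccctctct
Naa11: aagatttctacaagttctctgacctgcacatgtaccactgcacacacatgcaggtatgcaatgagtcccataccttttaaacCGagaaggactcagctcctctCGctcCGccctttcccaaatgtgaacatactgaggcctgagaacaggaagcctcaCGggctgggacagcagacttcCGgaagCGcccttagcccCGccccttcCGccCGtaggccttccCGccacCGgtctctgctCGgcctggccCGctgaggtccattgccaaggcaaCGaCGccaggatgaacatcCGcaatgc
Art1: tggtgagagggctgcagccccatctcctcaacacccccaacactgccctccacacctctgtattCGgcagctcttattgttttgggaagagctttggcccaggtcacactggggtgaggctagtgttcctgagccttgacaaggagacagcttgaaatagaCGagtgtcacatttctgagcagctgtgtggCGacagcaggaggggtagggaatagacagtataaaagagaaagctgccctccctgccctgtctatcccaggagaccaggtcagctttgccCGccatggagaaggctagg

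The Usp32 sequence holds 34 CpG sites and the Birc6 sequence 21, against a median of 7 over 31396 RefSeq promoters of the same length. The start tile of Usp32 was at 0.996% ± 0.788 in KO and 1.11% ± 0.235 in WT (SD, n = 3 each). The Birc6 start had 0.487% ± 0.0948 in KO and 0.336% ± 0.0756 in WT. The Naa11 sequence holds 16 CpG sites, and its start tile was methylated, at 78.5% ± 3.47 in KO and 91.2% ± 1.51 in WT. The Art1 sequence has 4 CpG sites, and its start tile was at 11.99% ± 2.59 in KO and 67.4% ± 9.23 in WT.

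Highly methylated windows were lower in KO throughout. Their mean level was 73.8, 74.1 and 74.1% in the KO samples, against 80.6, 79.8 and 80.1% in the WT samples, so that the groups did not overlap. The means were 74.0% ± 0.163 in KO and 80.2% ± 0.431 in WT (SD, n = 3 each), a difference of -6.16 points. In the other 22004 windows the means were 63.0% ± 0.139 in KO and 67.9% ± 0.462 in WT, with KO minus WT at -4.92 points. All 1454 highly methylated windows had a negative difference, from -20.5 to -0.341 points with a median of -5.61. In 1440 of them (99.0%) every KO sample lay below every WT sample, as in 76.8% of the other windows, a comparison in which the choice of windows by WT level takes part.

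In the limma fit over all windows, at an adjusted p under 0.05 with a minimum difference of 5 points, 881 of the 1454 windows were called lower in KO (60.6%) and 0 higher, beside 41.9% of all 23458 windows called lower and 0% called higher. At an adjusted p alone, 1446 of the 1454 were lower and 0 higher, beside 78.9% of all windows lower and 0.0682% higher. The choice of windows used the same WT samples, so nothing is read from these shares. Windows were therefore chosen from 1 WT sample and fitted in the KO samples and the other 2 WT samples. Of 1784 windows chosen from WT replicate 1, 1053 were called lower (59.0%, beside 39.5% of all windows). Of 1275 chosen from WT replicate 2 it was 782 (61.3%, beside 43.2%), and of 1427 chosen from WT replicate 3 it was 825 (57.8%, beside 43% of all windows). The KO minus WT difference was -6.14, -6.18 and -6.06 points in these choices, with 0 windows called higher in each.

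These shares depend on tile number and on how levels are scaled. Among windows with at least 80 tiles, 664 of 1104 highly methylated windows (60.1%) were called lower, beside 60.6% of all such windows. The levels of all KO samples were lower genome-wide, with a mean over tiles 0.922 of that in WT and a median that differed by -4.89 points. After each sample was scaled to one mean level, the difference over highly methylated windows was 0.0729 points, against 0.377 in the other windows. Of the 1454 windows 84 were then called lower and 17 higher, beside 2586 lower and 949 higher of all 23458. Differences below are in points on the levels as deposited. Scaled values are added for the main classes, and many of the smaller negative differences are positive on the scaled levels.

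**Figure D1:**
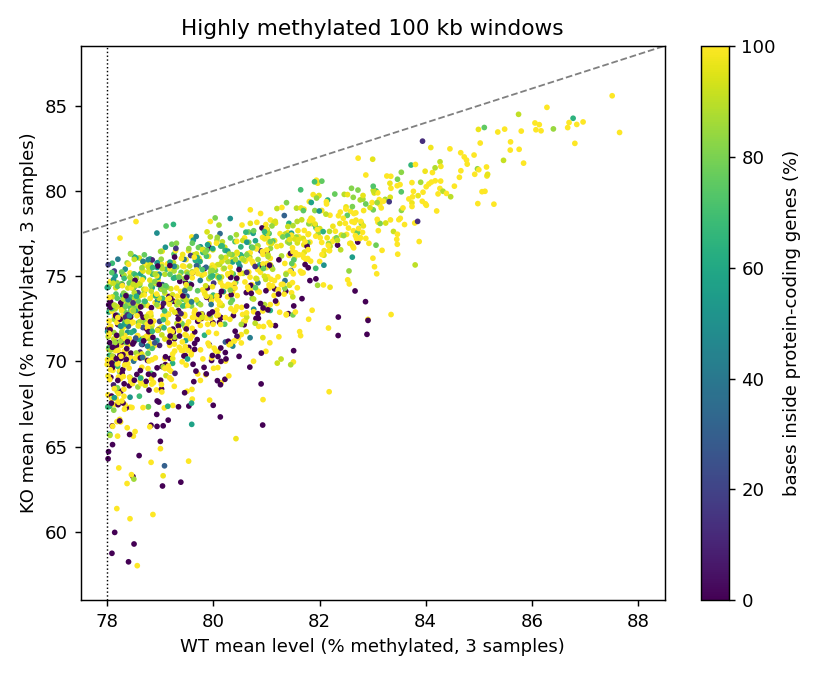
Mean methylation level of each of the 1454 highly methylated windows in KO (vertical axis, percent) against WT (horizontal axis, percent), each over 3 samples, coloured by the share of the window inside protein-coding genes. The dashed line marks equal levels and the dotted line the limit of 78%; every window lies below the dashed line, and the windows of lowest KO level sit near the limit.

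The levels on both sides of the limit lay close together. The 5 windows just inside it ran from 78.0005 to 78.0115% in WT, with KO levels of 67.3 to 74.3%. The 5 just outside ran from 77.9934 to 77.9975% in WT, with KO levels of 60.3 to 73.5%. Few windows kept a level of 78% in KO, 197 in all, and each of them was among the highly methylated windows of WT, 13.5% of those. The 1454 windows with the highest KO levels included 1024 of the highly methylated windows of WT, 70.4% of each set. Across the 1454 windows the KO level followed the WT level (Spearman's rho = 0.684, Pearson's r = 0.722), a description of windows that share 6 samples and often neighbours.

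The KO minus WT difference was smaller where the WT level was higher. It was -6.79 points in the 808 windows at 78 to 80% in WT, -5.88 in the 418 at 80 to 82%, -4.87 in the 166 at 82 to 84% and -3.30 in the 62 at 84% or more. The 62 highest windows were at 81.7, 82.1 and 81.9% in KO and at 85.6, 84.8 and 85.2% in WT, with no overlap of the groups. Of them 8.06% were called lower, against 68.8% of the windows at 78 to 80% and 41.9% of all windows. The call needs a fall of at least 5 points and uses the WT samples that set the classes, so nothing is read from these shares. A choice of class by 1 WT sample, with the mean of the other 2 as the WT value, gave -3.46 to -3.38 points at 84% or more and -6.86 to -6.75 at 78 to 80%. After scaling, the windows at 78 to 80% were at -0.688 points, those at 80 to 82% at 0.419, those at 82 to 84% at 1.64 and those at 84% or more at 3.47. The unmethylated share was 1.32 times as large in KO as in WT at 78 to 80%, 1.31 times at 80 to 82%, 1.28 times at 82 to 84% and 1.22 times at 84% or more. Below the limit, the difference was -7.08 points in windows at 72 to 78% in WT and -2.80 at 60 to 66% (2.20 on the scaled levels), so that the largest of these differences lay just under and just above the limit.

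**Figure D2:**
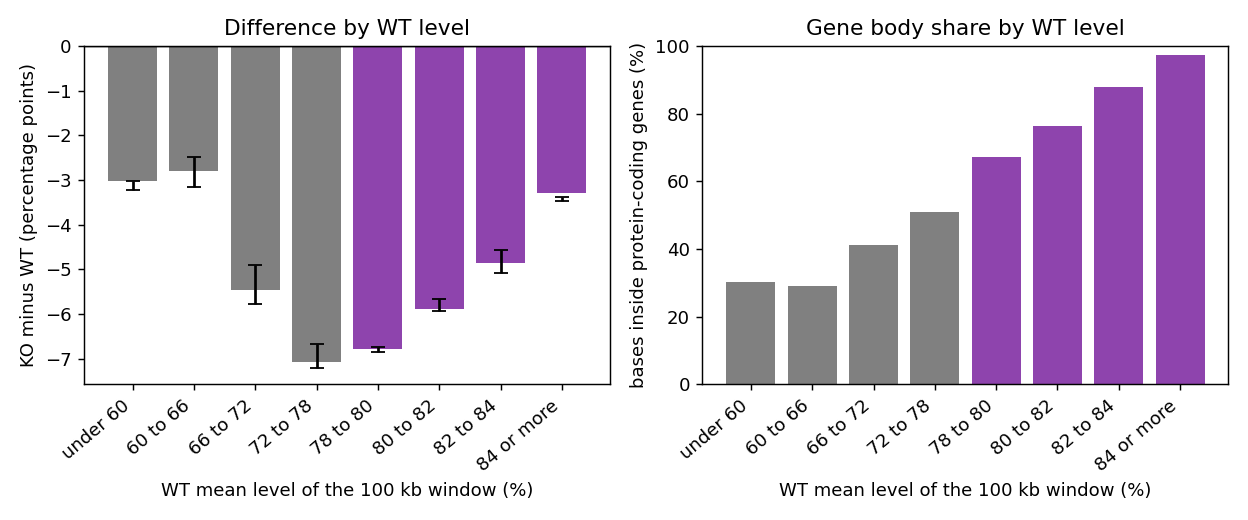
Left, KO minus WT difference in percentage points by the WT level of the window, with bars for the mean over windows. Whiskers run from the lowest to the highest value when each WT sample in turn chose the classes. The mean of the other 2 WT samples was then the WT value. Right, mean share of bases inside protein-coding genes; the highly methylated windows are in purple, where the loss shrinks to -3.30 points and the gene share grows to 97.3%.

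Highly methylated windows lay mostly inside protein-coding genes. On average 73.5% of their bases lay inside protein-coding genes, against 39.3% in the other windows (medians 91.9 and 29.3%). A share of at least 50% was found in 1156 windows (79.5%, against 40.3% of the others), and 519 windows (35.7%, against 14.2%) lay wholly inside genes. The 225 windows with no protein-coding base made up 15.5%, against 36.3% of the others. The gene share grew with the WT level, and was 67.3% at 78 to 80%, 76.3% at 80 to 82%, 88.0% at 82 to 84% and 97.3% at 84% or more. No test was run on these shares, since neighbouring windows share genes and are not independent.

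Gene density, in contrast, was like that of the rest of the genome. Midpoints of protein-coding genes numbered 8.43 per Mb in the highly methylated windows and 8.49 per Mb in the others. Long non-coding RNA genes were sparser, at 3.42 per Mb against 5.29. The most gene-dense stretches were seldom among them, as 15 windows (1.03%) held at least 4 protein-coding midpoints, against 5.56% of the others. The 1226 protein-coding genes with a midpoint in these windows had a median length of 69.4 kb, against 16.7 kb for the genes of other windows, and 36.5% of them were longer than 100 kb, against 9.87%. Of all genes of 100 to 200 kb, 21.6% had their midpoint in a highly methylated window, the highest share of any length class, against 1.52% of genes under 10 kb and 11.98% of genes over 400 kb. Annotated microRNA genes numbered 54 in these windows.

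Tiles inside protein-coding genes differed less between KO and WT than tiles outside genes, and in the rest of the genome the order was the other way round. Within the highly methylated windows, 93710 tiles inside protein-coding genes were at 75.3% ± 0.181 in KO and 81.2% ± 0.407 in WT, with KO minus WT at -5.83 points. The 25336 tiles outside all genes were at 70.9% ± 0.126 in KO and 78.1% ± 0.548 in WT, with KO minus WT at -7.26 points (SD, n = 3 each). The 5149 tiles in other genes only, which are mostly non-coding, differed by -8.25 points. In the other windows the difference was -6.33 points inside protein-coding genes and -4.37 outside all genes. On the scaled levels, tiles inside genes were at 0.493 points and tiles outside at -1.23 in the highly methylated windows, and at -0.909 and 0.913 in the others.

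The excess of genic over intergenic tiles was taken within each sample. The WT samples also chose the windows, so the excess is described without a test. In highly methylated windows it was 4.38, 4.41 and 4.57 points in the KO samples and 2.78, 2.96 and 3.36 in the WT samples, with no overlap. It was larger in KO by 1.42 points, and by 1.14 to 1.60 points when 2 WT samples chose the windows and the third gave the WT value. In the other windows the same excess was 0.739 ± 0.115 points in KO and 2.70 ± 0.200 in WT, which is -1.96 points. Highly methylated windows minus other windows, it was 3.71 ± 0.0353 in KO and 0.335 ± 0.138 in WT, a double difference of 3.38 points. Within single windows that held at least 10 tiles of each kind, 358 in all, the excess was 7.55 ± 0.128 points in KO and 6.73 ± 0.228 in WT, and 228 of the 358 had a larger excess in KO. The difference there was 0.823 points.

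**Figure D3:**
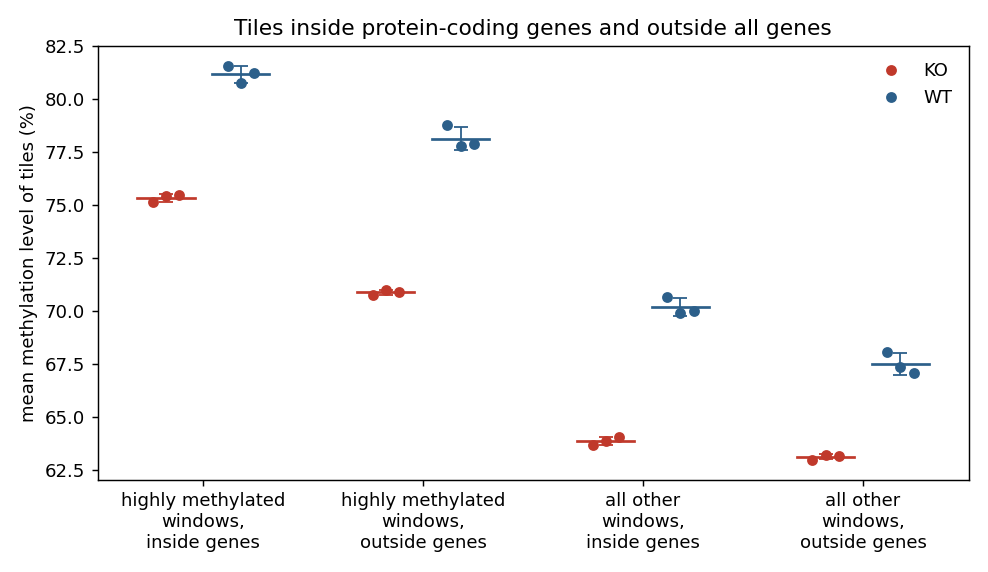
Mean methylation level (vertical axis, percent, not starting at 0) of tiles inside protein-coding genes and outside all genes, in highly methylated windows and in all other windows. Points are samples and lines with bars are means ± SD of 3 KO (left) and 3 WT (right) samples; in highly methylated windows the KO points lie further below WT outside genes (-7.26 points) than inside (-5.83), and the order is reversed in the others.

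Among highly methylated windows, those without any protein-coding gene had the largest mean difference. The 225 of them were at 71.2% ± 0.168 in KO and 79.5% ± 0.598 in WT, with KO minus WT at -8.31 points. Of these, 203 (90.2%) were called lower, beside 21.8% of all 8209 windows without such a gene and 41.9% of all windows. The 7984 other windows without such a gene were at 66.9% in WT and differed by -3.19 points, with 19.9% called. The WT level that chose the highly methylated windows also enters these calls, so nothing is read from the shares. The 519 windows wholly inside genes differed by -6.66 points and the 637 with a gene share from 50 to under 100% by -5.04 (1.23 on the scaled levels). The gap between windows without a gene and those wholly inside genes was -2.84 ± 0.117 points in KO and -1.18 ± 0.304 in WT, and thus differed by -1.66. With 2 WT samples choosing the windows and the third as WT, that value was -1.79 to -1.26. By gene number, the difference was -7.41 points in 578 windows with no protein-coding midpoint, -5.77 in 613 with 1, -4.42 in 193 with 2 and -4.10 in 70 with 3 or more. On the scaled levels these were -1.25, 0.513, 1.88 and 2.18 points, in the same order. The gap between windows with 0 and with 3 or more midpoints was -3.06 ± 0.179 points in KO and 0.259 ± 0.318 in WT, and thus differed by -3.31, or by -3.39 to -3.06 with the WT sample that the choice left out.

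Single tiles showed a shift from high to intermediate methylation. In the highly methylated windows 41.5% ± 0.691 of tiles were at 80% or more in KO, against 64.4% ± 1.92 in WT. Tiles at 50 to under 80% made up 51.3% ± 0.622 in KO and 32.5% ± 1.85 in WT, and tiles at 10 to under 50% made up 6.35% ± 0.217 and 2.49% ± 0.0735 in KO and WT. Tiles under 10% were rare in both, 0.884% ± 0.0148 in KO and 0.654% ± 0.00401 in WT. The SD over the tiles of a window averaged 14.3 points in KO and 12.1 in WT, against 14.6 in KO and 13.6 in WT in the other windows. With limma over all tiles and a minimum of 10 points, 23415 of the 125599 tiles were called lower (18.6%, beside 16.2% of all tiles) and 25 higher (0.0199%, beside 0.0796% of all tiles).

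Unmethylated valleys, tiles whose mean over the 6 samples was under 10%, occurred in 479 of the highly methylated windows (32.9%), against 39.98% of the others. Within 1 to 2 kb of a valley, tiles of these windows differed by -9.43 points. The difference was smallest between 11 and 50 kb away, at -5.34 points (1.06 on the scaled levels), and came to -6.58 points between 51 and 200 kb and -6.90 farther out. In the other windows it was -12.9 points within 1 to 2 kb and -2.24 points for tiles farther than 200 kb. On the scaled levels, tiles farther than 200 kb from a valley were at -0.719 points in highly methylated windows and at 2.99 in the others.

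Gene starts stayed low in both groups. The start was placed by RefSeq for 866 protein-coding genes of these windows, and 859 had a tile over it. Their mean start tile was at 8.72% ± 0.145 in KO and 10.5% ± 0.107 in WT, against 21.5% ± 0.0902 in KO and 24.7% ± 0.176 in WT for genes of other windows. In WT 80.7% of these start tiles were under 10%, against 55.3% of those of other genes. CpG content differed likewise. An observed to expected CpG ratio of at least 0.6 was found in 80.9% of the promoter sequences of these genes, against 50.1% of those of other genes and 36.4% of all RefSeq promoters in the table. Of the 859 start tiles, 34 were called lower (3.96%, against 8.98% of those of other genes and 16.2% of all tiles) and 0 higher (0.0796% of all tiles). The call needs a fall of at least 10 points, so a start tile under 10% in WT could not be called lower. Such tiles are more frequent among the genes of these windows, and nothing is read from the shares called. Genes were assigned by midpoint, so a start tile can lie outside the highly methylated windows.

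Along the genes, the difference varied between classes of distance from the start. The classes hold different genes, 864 in the first 2 kb and 704 at 20 to 50 kb. Only long genes reach the far classes, so distance and gene length cannot be told apart here. It was -5.49 points in the first 2 kb, where levels were low in both groups, at 28.3% ± 0.324 in KO and 33.7% ± 0.161 in WT. It was -8.04 points between 2 and 5 kb from the start, -5.48 between 20 and 50 kb, -6.72 between 100 and 200 kb and -7.78 from 200 kb on. The KO level there was 71.4% ± 0.140 and the WT level 79.2% ± 0.506, in 95 genes. In genes of other windows the difference from 200 kb on was -4.60 points, in 441 genes. Genes were assigned by midpoint, so tiles far from a start can lie outside the highly methylated windows. After scaling, the tiles at 20 to 50 kb were at 0.905 points and those at 200 kb and more at -1.70 in genes of the highly methylated windows.

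**Figure D4:**
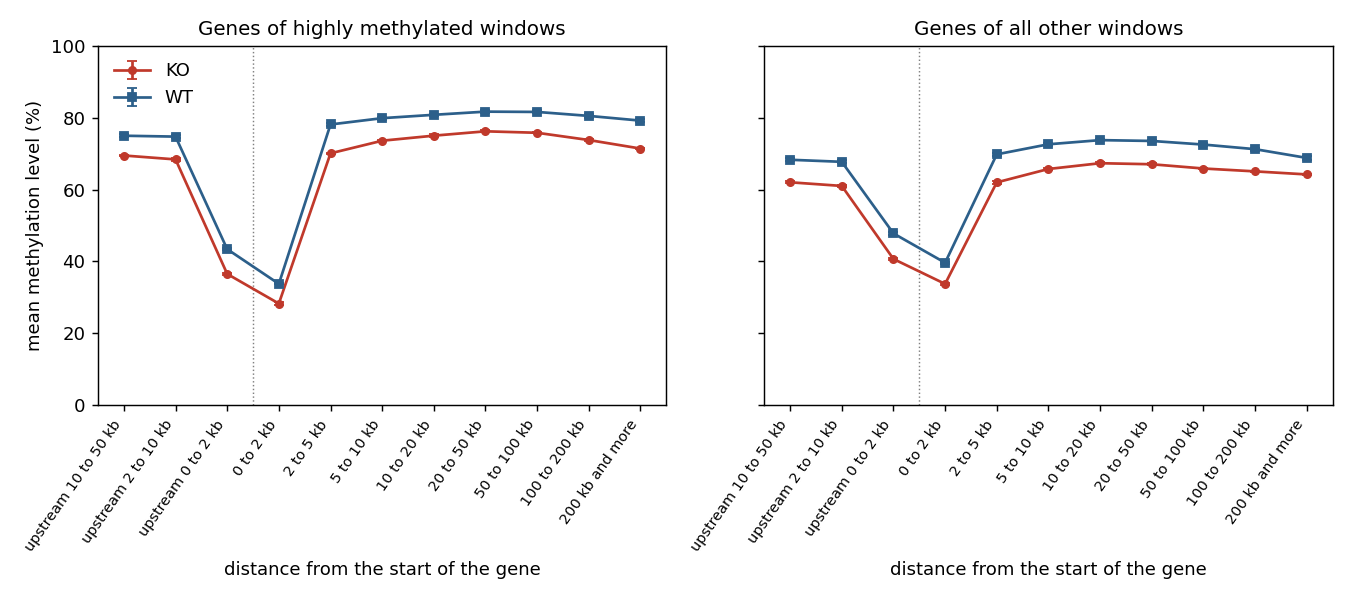
Mean methylation level (vertical axis, percent) of tiles by distance from the gene start, upstream classes first, for genes with their midpoint in highly methylated windows (left panel) and in other windows (right panel). Red circles are the mean of 3 KO and blue squares of 3 WT samples, with SD bars mostly smaller than the symbols; both groups dip at the start, and KO minus WT in the left panel is -5.48 points at 20 to 50 kb and -7.78 points at 200 kb and more.

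Gene bodies could be measured for 1168 genes of these windows, as the mean of at least 3 tiles that lie 1000 bp or more from the gene ends. They averaged 75.96% ± 0.160 in KO and 81.2% ± 0.399 in WT, with a median difference of -4.57 points, against -5.47 for genes of other windows. Of the 1168 bodies, 934 were themselves at 78% or more in WT. In limma with a minimum of 5 points, 512 were called lower (43.8%, beside 53.3% of all 15364 gene bodies) and 0 higher (beside 0.013% of all). The WT samples that chose the windows enter this fit too, so these calls describe the genes. On the scaled levels 61 of the 1168 were lower and 75 higher, beside 2646 lower and 881 higher of all 15364. The scaled median was 1.83 points over these genes and 0.302 over all genes. Long genes differed more, but genes were assigned by midpoint, and those over 100 kb reach beyond the window of their midpoint. When whole genes had to lie inside highly methylated windows, 116 of 440 bodies were lower (26.4%). The classes that follow use the midpoint. The difference was -4.43 points in 427 genes under 50 kb, -4.37 in 293 of 50 to 100 kb, -5.93 in 293 of 100 to 200 kb, -7.46 in 115 of 200 to 400 kb and -7.94 in 40 over 400 kb. These were 1.95, 2.15, 0.371, -1.38 and -1.94 points when scaled, in the same order. In genes of other windows the order differed, with -6.48 points under 50 kb, -7.35 at 100 to 200 kb and -4.35 over 400 kb (0.981 when scaled). The gap between the longest and shortest class of the highly methylated windows was -6.37 ± 0.116 points in KO and -2.85 ± 0.248 in WT, and thus differed by -3.51, or by -3.63 to -3.31 with the WT sample left out of the choice.

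The bodies with the largest loss were not the longest, and of these 10 only Naa11 reached 78% in WT. Hspg2 (chromosome 4, 137468751 to 137570630), which encodes the basement membrane proteoglycan perlecan, was at 57.3, 59.2 and 59.4% in KO and 78.1, 76.7 and 76.7% in WT. It fell by 18.5 points (limma, adjusted p = 7.18e-06), with no overlap of the groups, while its start tile was low in both, at 2.502% ± 1.17 in KO and 4.03% ± 0.535 in WT. Jag1 (chromosome 2, 137081451 to 137116520), a Notch ligand gene of vessels, was at 53.9, 55.2 and 55.2% in KO and 70.2, 70.4 and 70.5% in WT, with KO minus WT at -15.6 points (limma, adjusted p = 7.25e-06). It is the 1 gene of the VEGF and angiogenesis list with a midpoint in these windows. Naa11 differed by -21.1 points over only 7 tiles, at 57.2% ± 4.19 in KO and 78.3% ± 0.647 in WT. The autophagy gene Atg16l2 lost 19.1 points, at 54.6% ± 3.02 in KO and 73.7% ± 1.18 in WT. Art1, whose CpG-poor start is printed above, was at 57.5% ± 1.76 in KO and 73.5% ± 0.994 in WT.

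Others of the 10 largest body losses included signalling and guidance genes. Ntn1, which encodes the guidance cue netrin-1, was at 62.0% ± 0.227 in KO and 77.4% ± 0.435 in WT. Bach2, a transcriptional repressor of lymphocytes, was at 56.5% ± 0.435 in KO and 72.3% ± 0.544 in WT. The glycosyltransferase gene Galnt10 was at 60.9% ± 0.741 in KO and 76.8% ± 0.698 in WT. Chn2, which encodes a GTPase-activating protein for Rac, was at 62.3% ± 0.612 in KO and 77.52% ± 0.542 in WT. Mon1a, of the complex that activates Rab7, was at 56.2% ± 0.983 in KO and 73.9% ± 3.50 in WT. Each of these was called lower in limma with no overlap of the groups, and each kept its loss on the scaled levels.

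At the other end, 6 bodies with at least 10 tiles hardly differed. Mcm4, a subunit of the replicative helicase, was at 87.2, 87.4 and 86.6% in KO and 87.5, 87.3 and 86.9% in WT, with KO minus WT at -0.196 points (limma, adjusted p = 0.802) that left the groups overlapping. Utp20, of ribosome assembly, was at 83.95% ± 0.372 in KO and 84.5% ± 0.182 in WT (limma, adjusted p = 0.405). The splicing kinase gene Clk1 was at 62.7% ± 1.85 in KO and 63.0% ± 2.74 in WT. Zfp59, a zinc finger gene, was at 75.6% ± 1.74 in KO and 75.8% ± 1.24 in WT. The gene 4930430F08Rik had 86.2% ± 1.54 in KO and 86.6% ± 1.19 in WT. Slc22a13, an organic anion transporter gene, was 1 of 2 bodies with a positive difference, 72.3% ± 1.05 in KO and 71.9% ± 0.294 in WT. None of the 6 was called, and on the scaled levels their differences were positive, from 4.83 to 6.86 points. On those levels Mcm4, Utp20, Slc22a13, 4930430F08Rik and Zfp59 passed the call as higher in KO (limma, adjusted p = 0.000489 for Mcm4 to 0.0066 for Zfp59), and Clk1 did not.

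The longest genes with a midpoint in these windows differed by -8.97 to -6.30 points, and each of the 6 calls ended on the scaled levels, where differences were -3.10 to -0.0589 points. Zbtb20 (758.7 kb), a zinc finger repressor gene, was at 68.2% ± 0.599 in KO and 77.2% ± 0.620 in WT. Cdkal1 (663.9 kb), a tRNA-modifying enzyme gene, was at 69.5% ± 0.407 in KO and 78.1% ± 0.322 in WT. Hdac9 (869.5 kb), a histone deacetylase gene, was at 68.3% ± 0.582 in KO and 76.5% ± 0.843 in WT. Etl4 (900.3 kb), the latrophilin gene Adgrl3 (808.7 kb) and the exocyst subunit gene Exoc4 (724.9 kb) differed by -6.90, -7.29 and -6.30 points. All 6 were called lower in limma without overlap of the groups.

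Along the chromosomes, highly methylated windows were mostly isolated. They formed 1053 runs, of which 800 were single windows, 166 were pairs and 87 had 3 or more, and the runs of 3 or more held 322 windows. The share of windows that were highly methylated ranged from 3.59% on chromosome 7 to 10.7% on chromosome 18 (93 of 873). The unscaled difference was negative on all 19 chromosomes, from -5.49 points on chromosome 12 to -7.29 on chromosome 18. Windows next to a run were at 64.98% ± 0.187 in KO and 72.4% ± 0.453 in WT, which is -7.39 points, and windows 500 kb away differed by -6.17.

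The longest run had no protein-coding gene. Its 10 windows (chromosome 14, 85300001 to 86300000) lie between the protocadherin gene Pcdh17 and the formin gene Diaph3, 355 kb from Diaph3, and hold 7 other annotated genes. They were at 73.9, 74.3 and 73.9% in KO and 82.2, 80.5 and 81.0% in WT, with KO minus WT at -7.18 points with no overlap. A run of 9 windows (chromosome 18, 53900001 to 54800000) holds the casein kinase gene Csnk1g3, and was at 69.1, 69.3 and 69.2% in KO and 80.2, 79.3 and 79.3% in WT, with KO minus WT at -10.4 points. A run of 6 windows (chromosome 14, 86500001 to 87100000), in which Diaph3 lies, was at 75.6, 75.4 and 75.3% in KO and 83.1, 82.7 and 82.6% in WT, with KO minus WT at -7.37 points.

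The 5 windows with the largest loss had KO levels below the KO mean of the other windows. A window wholly inside Lrmda, a gene of melanocyte differentiation (chromosome 14, 22200001 to 22300000), was at 58.4, 58.0 and 57.7% in KO and 80.2, 78.03 and 77.49% in WT, with KO minus WT at -20.5 points. The other 4 hold no protein-coding base. The nearest gene to one (chromosome 16, 29900001 to 30000000) was Hes1, a transcriptional target of Notch, 65.4 kb away, and it was at 58.2, 57.9 and 58.7% in KO and 79.2, 78.4 and 77.6% in WT. The others lay 107 kb from Zfp608 (-19.3 points), 111 kb from the latrophilin gene Adgrl2 (-19.2) and 2.96 kb from Cops8 (-18.2), a subunit of the COP9 signalosome. In each of the 5 windows all KO samples were below all WT samples.

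Of the 5 windows with the smallest loss, 3 lay wholly inside genes. One inside Dync2h1, the dynein heavy chain of transport in cilia (chromosome 9, 7000001 to 7100000), was at 78.7, 78.6 and 77.3% in KO and 80.6, 77.4 and 77.6% in WT, with KO minus WT at -0.341 points with overlapping groups. The next were in Gphn, the gene of the synaptic scaffold gephyrin (81.9% ± 0.836 in KO, 82.7% ± 0.758 in WT), and in the glycogen branching enzyme gene Gbe1 (77.2% ± 0.320, 78.2% ± 1.19). A window with 12.6% of its bases in the folate enzyme gene Aldh1l2 (82.9% ± 0.622 in KO, 83.9% ± 0.930 in WT) and one with 96.0% in the muscle protein gene Ttn (81.9% ± 0.276 in KO, 83.0% ± 0.931 in WT) followed. In all 5 the groups overlapped. On the scaled levels each was positive, by 5.29 to 6.01 points.

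The 3 windows of highest WT level lay wholly inside Usp32, Birc6 and the cohesin subunit gene Stag1. The Usp32 window (chromosome 11, 85000001 to 85100000) was at 83.3, 83.1 and 83.9% in KO and 88.3, 87.6 and 87.0% in WT. The Birc6 window (chromosome 17, 74600001 to 74700000) was at 85.4, 85.9 and 85.5% in KO and 87.3, 86.9 and 88.4% in WT, with KO minus WT at -1.94 points with no overlap. The Stag1 window (chromosome 9, 100800001 to 100900000) was at 84.04% ± 0.363 in KO and 87.0% ± 1.36 in WT. When scaled, these windows were at 2.69, 5.07 and 3.999 points. The 3 windows with the most protein-coding midpoints differed by -5.32 points (Nudt13, Ecd, Fam149b, Dnajc9, Mrps16 and Cfap70), -3.24 (Bzw1, Clk1, Ppil3, Nif3l1 and Orc2) and -1.55 (Uqcrb, Gm10767, Mterf3 and Ptdss1). When scaled they were at 0.873, 3.005 and 5.19 points.

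Several lists of cell machinery genes were well represented in these windows. Of all 19913 protein-coding genes in measured windows, 1226 (6.16%) had their midpoint in a highly methylated window. The share was 6 of 11 for writers and erasers of histone H3 lysine 36 methylation (54.5%), 13 of 27 for centrosome and cilium genes (48.1%), 12 of 31 for ubiquitin ligases (38.7%), 15 of 39 for DNA repair (38.5%) and 5 of 20 for tRNA synthetases (25%). It was 3 of 34 for splicing, 2 of 26 for proteasome and 2 of 30 for respiratory chain genes. None of 34 pan-endothelial markers lay in such a window, nor any of 26 ribosomal protein, 16 DNA methylation, 51 developmental, 21 leukocyte, 18 epithelial and 17 mesenchymal genes, while 1 of 28 angiogenesis genes did. These lists are short and their shares were not tested against the 6.16% of all genes, so nothing is read from the absences. Gene length differs between these lists. The median was 86.1 kb for the lysine 36 genes, 52.4 kb for DNA repair and 89.4 kb for ubiquitin ligases. It was 19.2 kb for pan-endothelial and 3.31 kb for ribosomal protein genes. It was 27.0 kb for tRNA synthetases, 43.6 kb for DNA methylation genes and 90.3 kb for clustered protocadherins. Of all genes of 50 to 100 kb, 12.3% were in these windows, beside 4.55% of those of 10 to 50 kb and 1.52% of those under 10 kb.

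**Figure D5:**
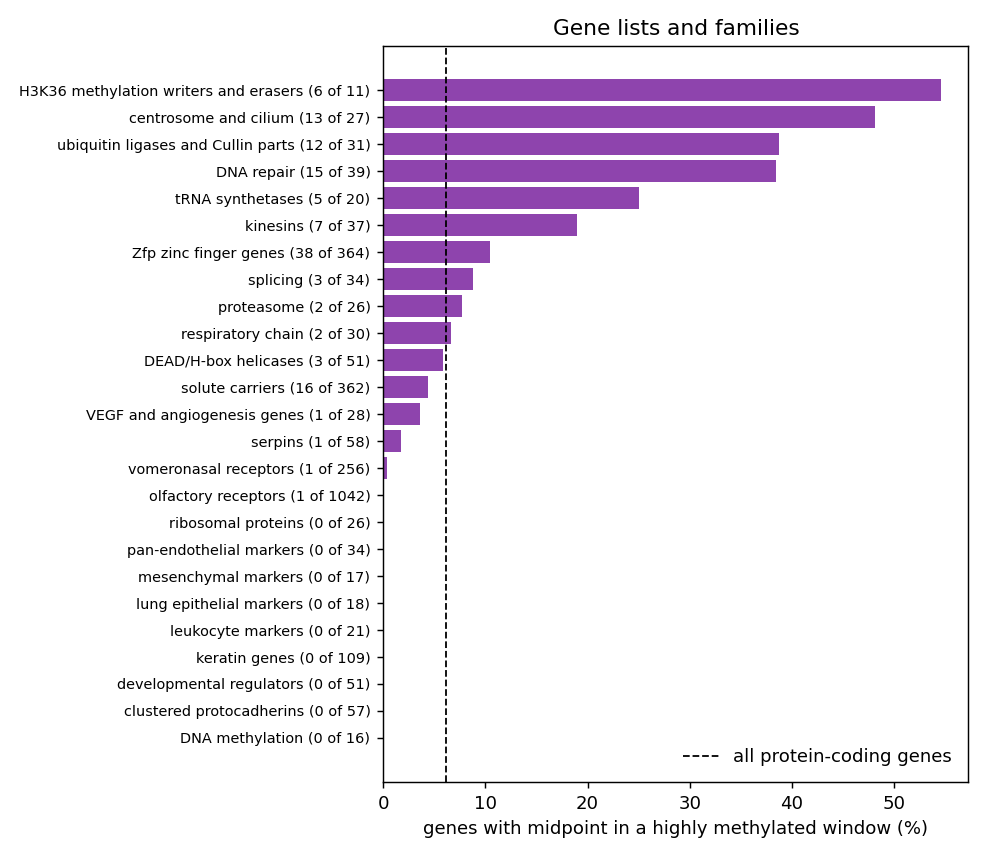
Share of the genes of each list or family (horizontal axis, percent) that have their midpoint in a highly methylated window, with the numbers beside each name. The dashed line is the 6.16% of all protein-coding genes; 4 lists pass 38%, and 9 have no gene in such a window.

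Each of the 6 lists with at least 3 bodies in these windows had a median difference smaller in size than that of all bodies there. This leaves out the families picked by symbol, of which kinesins (-5.53 points) and solute carriers (-5.28) had larger medians. Among the 15 DNA repair genes the median difference was -3.14 points, with 1 called lower, and among the 12 ubiquitin ligases -3.00 points, with 1 called lower. The 6 lysine 36 genes had a median of -3.23 points with 1 lower, the 13 centrosome and cilium genes -3.51 with 6 lower, the 5 tRNA synthetases -2.13 with 0 lower and the 3 splicing genes -2.19 with 0 lower. The median of all 1168 bodies in these windows was -4.57 points, of which 43.8% were lower. On the scaled levels each of these list medians turned positive, from 3.05 points for centrosome and cilium genes to 4.55 for splicing genes, with 1.83 for all 1168 bodies. In the other windows the unscaled medians were -2.83 points for tRNA synthetases, -3.11 for splicing, -3.78 for DNA repair and -4.77 for ubiquitin ligases. They were -6.23 for centrosome and cilium and -6.52 for lysine 36 genes there, beside -5.51 for all bodies of other windows.

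Examples show how close the groups could lie. Among repair genes, the helicase gene Brip1 was at 71.4, 71.2 and 72.4% in KO and 81.0, 80.5 and 79.9% in WT, with KO minus WT at -8.78 points (limma, adjusted p = 2.03e-05), a call that ended on centred (-3.89) and scaled levels (-2.64). Wrn, the Werner syndrome helicase gene, was at 78.6% ± 1.09 in KO and 83.2% ± 0.182 in WT. Xrcc4, of end joining, had 73.3% ± 0.227 in KO and 77.8% ± 0.114 in WT. Both missed the minimum of 5 points, except that Wrn passed it without KO replicate 2 (-5.01). Of the writers of lysine 36 methylation, Nsd2 was at 78.6, 78.7 and 78.6% in KO and 83.1, 83.1 and 85.0% in WT. Its KO minus WT difference was -5.13 points (limma, adjusted p = 0.00048), a call that ended without WT replicate 3 (-4.50 points) and on centred (-0.24) and scaled levels (1.43). Ash1l was at 80.6% ± 0.776 in KO and 84.7% ± 0.486 in WT. The demethylase gene Kdm4c had 79.6% ± 0.620 in KO and 82.8% ± 0.732 in WT.

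The ubiquitin ligase gene Rnf213, known from moyamoya disease of cerebral vessels, was at 69.0, 69.4 and 70.3% in KO and 77.2, 77.4 and 77.8% in WT, with KO minus WT at -7.89 points (limma, adjusted p = 2.67e-05), a call that ended on centred (-3.00) and scaled levels (-1.96). Ube3c and Ubr2 differed by -4.25 and -4.08 points and were not called. The cilium genes Bbs9, Rpgrip1l and Cep152 were called lower, by -6.78, -5.62 and -5.80 points, each with no overlap of the groups. These calls ended on centred levels, at -1.89, -0.73 and -0.91 points, and on scaled levels, at -0.81, 0.75 and 0.81. The proteasome lid gene Psmd14 was at 77.7% ± 0.860 in KO and 83.9% ± 0.676 in WT, which passed the call, though not on centred (-1.27) or scaled levels (0.37). Psmd11, at 83.5% ± 1.14 in KO and 86.5% ± 1.17 in WT, did not. The tRNA synthetase genes Dars, Farsb and Lars differed by -4.99 (called without KO replicate 2, WT replicate 1 or WT replicate 2), -3.84 and -1.79 points, the splicing genes Aqr and Sf3b3 by -2.19 and -2.94, and Ndufb3, of respiratory complex I, by -3.43, without a call.

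Among families picked by symbol, Zfp zinc finger genes were found in these windows more often than the average gene, 38 of 364 (10.44%), and kinesins at 7 of 37 (18.9%). Olfactory receptor genes were nearly absent, 1 of 1042, as were vomeronasal receptor genes with 1 of 256, and no gene of 57 clustered protocadherins or 109 keratins was among them. Of the 38 Zfp bodies 12 were called lower (beside 43.8% of the bodies in these windows and 53.3% of all), with a median of -3.54 points that turned to 3.29 on the scaled levels. Solute carriers were at 16 of 362 (4.42%), with 9 of the 16 bodies lower and a median of -5.28 points, or 1.18 when scaled. The 7 kinesin bodies had a median of -5.53 points (0.826 when scaled) with 4 lower. The 3 bodies of DEAD/H-box helicases had a median of -1.77 points (4.84 when scaled) with 0 lower.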

How the data were processed

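DNA of lung endothelial cells from 3 Dnmt3a KO and 3 WT samples was profiled with tagmentation-based bisulfite sequencing of the whole genome, from 30 ng of DNA and 3 libraries per sample with paired reads of 100 bases, per the labels' protocols. BWA 0.7.8 and mm10 are named in the submitters' processing notes. The deposited table gives a methylation fraction from 0 to 1 per sample for 1954255 tiles of 1 kb, per the file headers. The caller, any smoothing and any coverage filter are not stated in the labels or headers. Without read counts no intervals or detection limits could be given, and precision may differ between samples unseen. Neighbouring tiles are not independent.

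Fractions were turned to percent and averaged over 100 kb windows with at least 50 tiles, and a window was highly methylated at 78% or more in the mean of WT. The windows, lists and tests were chosen with earlier results of these data known. limma 3.58.1 (R 4.3.3), with a variance trend and Benjamini-Hochberg adjustment, was fitted over all windows, all tiles and all 15364 gene bodies, with minimum differences of 5, 10 and 5 points at an adjusted p under 0.05, and was tested on simulated windows. Contrasts within samples are given without the planned exact permutation test, since the WT samples also chose the windows. Gene positions, biotypes and starts came from RefSeq (GRCm38.p6, the assembly that mm10 names), and a gene belonged to the window of its midpoint. Starts were used only within 1000 bp of the outer end of a gene. Exons, introns and CpG positions outside promoters were not analysed here. Of 439 listed genes 432 matched, and further families were picked by symbol. The genes named are the 10 largest losses without overlap, the 6 smallest differences, the 6 longest genes and up to 3 per list by p, of which 1 is not reported here; the windows named are the 5 largest and 5 smallest losses, the 3 highest in WT, the 3 with most genes and the 3 longest runs. Samples were not paired, since the labels do not say that equal replicate numbers mark a shared litter or day. Deviations of samples with the same replicate number correlated at 0.0402, 0.0307 and 0.111 across windows, and those with different numbers at -0.0877 to 0.0498. These values do not settle whether samples were paired. Python 3.11.15, numpy 2.4.6, pandas 2.3.3, scipy 1.17.1 and matplotlib 3.10.9 did the rest.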

Additional observations from a re-analysis of the deposited data

How the results depend on the processing

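All differences are KO minus WT. With each sample centred on its median level, 148 highly methylated windows were called lower and 0 higher, and 2912 of all windows were lower and 706 higher. Centring left 88 bodies lower and 2 higher and 8069 tiles lower and 532 higher, and the mean difference was -1.27 points. With each sample scaled to one mean level, 84 highly methylated windows were lower and 17 higher, and 2586 of all windows were lower and 949 higher. Scaling left 61 bodies lower and 75 higher, beside 2646 and 881 of all 15364, and 7166 tiles lower and 1968 higher. The mean difference then had the opposite sign, at 0.0729 points. The contrast between windows at 84% or more and at 78 to 80% was 4.15 points there against 3.49 unscaled, and that between the longest and shortest genes -3.89 against -3.51. Centring removes the difference in median level between samples and scaling that in mean level, and all KO samples were lower in both.

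Without a minimum difference, 1446 highly methylated windows, 1024 bodies and 18517 of all windows were lower, with 0, 0 and 16 higher. At a WT limit of 0.76 there were 2805 windows, of which 1879 were lower, with 1049 bodies lower, a mean difference of -6.64 points and 71.8% of windows with a gene share of at least 50%. At 0.80 there were 646 windows, 325 lower, with 214 bodies lower, -5.37 points and 86.7%. With 80 tiles needed that share was 86.4%. With windows of 200 kb there were 432, of which 290 were lower, and the share was 73.8%. When whole genes had to lie inside the windows, 116 of 440 bodies were lower. With windows chosen from WT replicates 1 and 3 and WT replicate 2 as the WT value, the difference was -5.76 points. The choice of windows from 1 WT sample, and the contrasts by gene share, gene number and gene length with a WT sample left out, were added after the data were seen.

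Without any one sample, 821 to 926 highly methylated windows, 9272 to 10123 of all windows, 491 to 542 bodies and 18096 to 21991 tiles were lower, and the mean difference was -6.37 to -5.94 points. The genic minus intergenic contrast was 1.29 to 1.58 points. Samples were not paired in the main fit, and a replicate block gave 881 windows, 511 bodies and 23519 tiles called lower.

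Of the 42 gene bodies named, 17 changed sign on centring. These were Mcm4 (4.70 points), Zfp59 (4.69), Clk1 (4.64), 4930430F08Rik (4.43), Utp20 (4.30), Lars (3.10), Aqr (2.71), Sf3b3 (1.95), Psmd11 (1.83), Kdm4c (1.77), Ndufb3 (1.47), Farsb (1.05), Ash1l (0.836), Ubr2 (0.810), Ube3c (0.643), Xrcc4 (0.468) and Wrn (0.331). On scaling 22 did. These were Mcm4 (6.86), 4930430F08Rik (6.53), Utp20 (6.23), Zfp59 (5.93), Lars (5.04), Clk1 (4.83), Aqr (4.55), Psmd11 (3.81), Sf3b3 (3.65), Kdm4c (3.45), Ndufb3 (2.96), Farsb (2.75), Ash1l (2.63), Ubr2 (2.46), Ube3c (2.40), Wrn (1.98), Xrcc4 (1.69), Nsd2 (1.43), Dars (1.39), Cep152 (0.812), Rpgrip1l (0.753) and Psmd14 (0.373). Without any one sample, Mcm4 ranged from -0.360 to 0.0361 points, Zfp59 from -0.962 to 0.747, Clk1 from -1.29 to 1.33, Slc22a13 from -0.237 to 0.719 and 4930430F08Rik from -1.14 to 0.427.

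Depth is unknown, so the part of the spread between tiles that is counting error could not be measured.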
